A study of Mus musculus with 2 samples.

Results

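The cGAS-STING pathway genes examined here are 8 genes taken by symbol from the 32285 features of the libraries: Cgas, Trex1, Tmem173 (the symbol under which the features list the STING gene), Tbk1, Ikbke, Irf3, Irf5 and Irf7. Their levels were compared across marker-gated cell classes of mouse MC38 tumors, in 1 untreated and 1 MSA-2–treated library. MC38 is a colon carcinoma line of C57BL/6 mice, here grown under the skin. MSA-2, a small-molecule STING agonist, was injected into the tumors every 3 days for 3 doses, and tumors of 3 mice went into 1 library per condition. The sample label calls the control untreated, the series record describes injections of saline with DMSO, and the methods call it saline. With 1 pooled library per condition there was no replicate, so no test between conditions was made and no p-value is given. All intervals are 95% intervals for counting error only.

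Cyclic GMP-AMP synthase (Cgas) senses double-stranded DNA in the cytosol and makes a cyclic dinucleotide that binds STING on the endoplasmic reticulum. STING moves to the Golgi and recruits the kinase TBK1, with IKKε (Ikbke) as its close relative, and these phosphorylate interferon regulatory factors that switch on type I interferon genes. The exonuclease TREX1 degrades cytosolic DNA and limits this signal. MSA-2 acts on STING itself, downstream of DNA sensing.

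The libraries held 14386 and 14617 barcodes with 198135335 and 204387165 UMIs (unique molecular identifiers, each standing for 1 captured RNA molecule). After filters and doublet removal 13334 untreated and 13393 MSA-2 cells were kept, and 39 kept barcodes occurred in both libraries. Cells fell by marker shares into macrophage-like (3573 untreated and 1148 MSA-2 cells), monocyte-like (467 and 792), neutrophil-like (33 and 2673), dendritic cell (DC)-like (266 and 22), NK/T-like (1429 and 258), fibroblast-like (230 and 636) and endothelial-like (66 and 81) classes. A further 6244 and 6854 deep cells carried low shares of every lineage marker and are called lineage-negative. The labels describe the samples as tumor cells and the methods as sorted immune cells, but in this class the fixed epithelial markers Krt8, Krt18, Krt7, Krt19, Epcam, Cldn4, Cldn7, Lgals4 and Ly6d each stayed below 0.7 CPM (counts scaled to a library total of 1e6), and the pan-immune gene Ptprc was at 12.96 CPM untreated and 8.785 CPM in MSA-2. Only S100a6 of that list was high there, at 10770 and 9436 CPM, so the class was not named tumor-like.

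The classes did not have the same make-up in both libraries, and this touches every ratio below. Macrophage-like cells sat mostly in clusters 0 (58.58%) and 4 (28.10%) in the untreated library and in cluster 12 (77.70%) in the MSA-2 library. Fibroblast-like cells sat in cluster 25 (80.43%) and cluster 16 (97.64%), and lineage-negative cells in separate sets of clusters. Of NK/T-like cells, cluster 18 held 35.48% untreated and 1.550% in MSA-2, and cluster 21 held 17.00% and 41.86%. T markers there summed to 4508 and 2357 CPM, and NK markers to 2052 and 4667 CPM. Of the untreated monocyte-like cells, 88.65% lay in cluster 4 beside macrophage-like cells, so each monocyte-like ratio is read with the value for macrophage-like and monocyte-like cells summed together. The neutrophil-like class held 33 untreated cells and the DC-like class 22 MSA-2 cells, and ratios there rest on few UMIs.

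Over all kept cells, Irf7 was 2.23-fold higher in the MSA-2 library and Tmem173 was the single member lower past the threshold, a log2 ratio of 0.58 in either direction. A level is the CPM of all UMIs that a class held in a library, and a ratio is the MSA-2 level divided by the untreated level, given for genes that reached 20 UMIs over the pair of libraries. Irf7 stood at 88.23 CPM untreated and 196.8 CPM in MSA-2 (log2 ratio 1.16, interval 1.13 to 1.18). Tmem173 stood at 13.56 and 7.817 CPM (log2 ratio -0.79, interval -0.89 to -0.70). Of 7 members tested, 1 was higher and 1 lower, against 19.1% of all tested genes higher and 15.8% lower. In such sums fewer cells of a type and less RNA per cell cannot be told apart.

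The sums moved with the class make-up. Macrophage-like cells held 45.53% of Tmem173 UMIs in the untreated library and 14.80% in the MSA-2 library, while the part of fibroblast-like cells went from 3.178% to 24.60%. With MSA-2 class levels weighted by the untreated class shares, the Tmem173 log2 ratio was -0.35 in place of -0.79. For Irf5 the macrophage-like part went from 42.61% to 12.19%, and its log2 ratio of -0.44 became -0.08 at untreated shares. Ikbke went the other way, from 0.27 to 0.60. Irf7 and Cgas hardly moved, at 1.16 and 0.56 with untreated shares, although the fibroblast-like part of Irf7 went from 2.540% to 16.68%. Levels within classes therefore carry the account that follows.

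**Figure D1:**
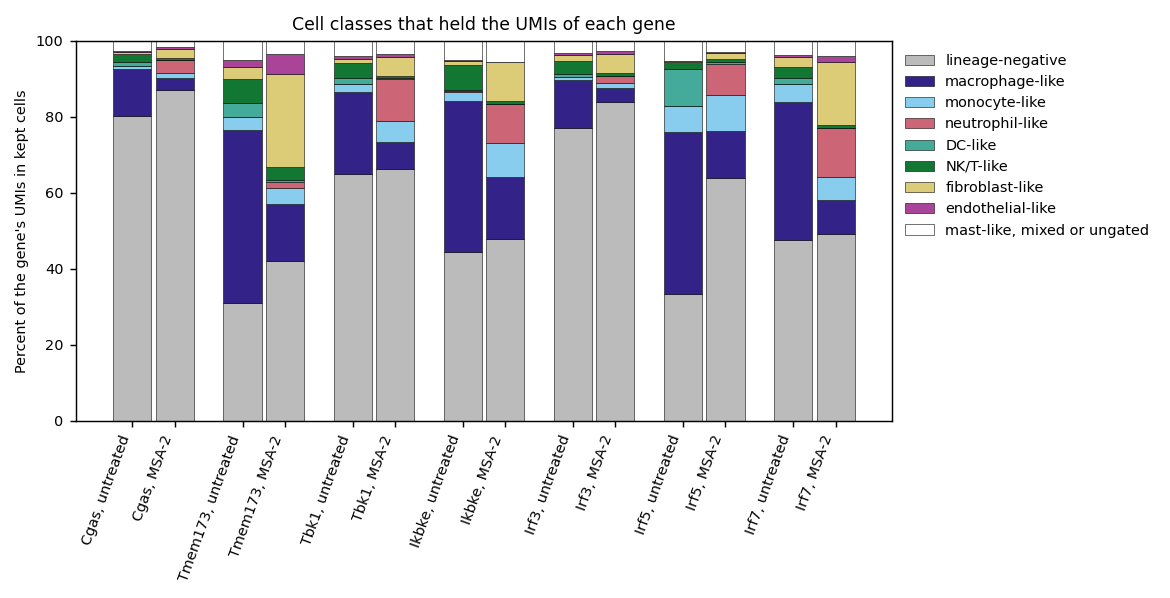
Percent of each gene's UMIs in kept cells (vertical axis) that came from each cell class (colors), for each gene in the untreated and the MSA-2 library (bars). The macrophage-like part of Tmem173 is 45.53% in the untreated bar and 14.80% in the MSA-2 bar.

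Within classes, Irf7 was higher past the threshold in the MSA-2 library in all 8 classes. The kinase genes Tbk1 and Ikbke were higher past it in macrophage-like and monocyte-like cells, and Ikbke in fibroblast-like cells too. Tbk1 also passed it in neutrophil-like and DC-like cells, with intervals that include 0. Tmem173 was lower past it in monocyte-like cells, while its ratios of -0.53 in macrophage-like and -0.45 in lineage-negative cells did not reach it. The members past the threshold are read against the share of all tested genes of that class past it. In lineage-negative cells 2 of 7 members were higher and 0 lower, where 20.2% of genes were higher and 12.6% lower. In macrophage-like cells it was 3 of 7 higher and 0 lower, where 14.6% were higher and 18.1% lower. In monocyte-like cells 4 of 7 were higher and 1 lower, against 18.0% and 30.3%. With macrophage-like and monocyte-like cells summed it was 3 higher and 1 lower, and with classes taken from clusters 1 of 6 higher and 3 lower. The shares of all genes are those of the gated class, and none is given for these alternatives.

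In fibroblast-like cells 3 of 7 members were higher and 0 lower, against 13.6% and 23.2% of genes. In NK/T-like cells 3 of 7 were higher and 0 lower, against 11.2% and 22.9%. In endothelial-like cells 2 of 5 were higher and 0 lower, against 14.4% and 21.4%. In DC-like cells 3 of 6 were higher and 1 lower, against 25.2% and 27.8%. In neutrophil-like cells 2 of 5 were higher and 0 lower, against 9.78% and 60.7%, with 33 untreated cells in that class. With edgeR's TMM factors 5 members were past the threshold in neutrophil-like and 6 in fibroblast-like cells, with no share of all genes given at that scaling. Over the tested members the median log2 ratio was 0.29 in lineage-negative cells, where that of all genes was 0.07. In macrophage-like cells the same medians were 0.38 and -0.13, and in fibroblast-like cells 0.56 and -0.19.

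**Figure D2:**
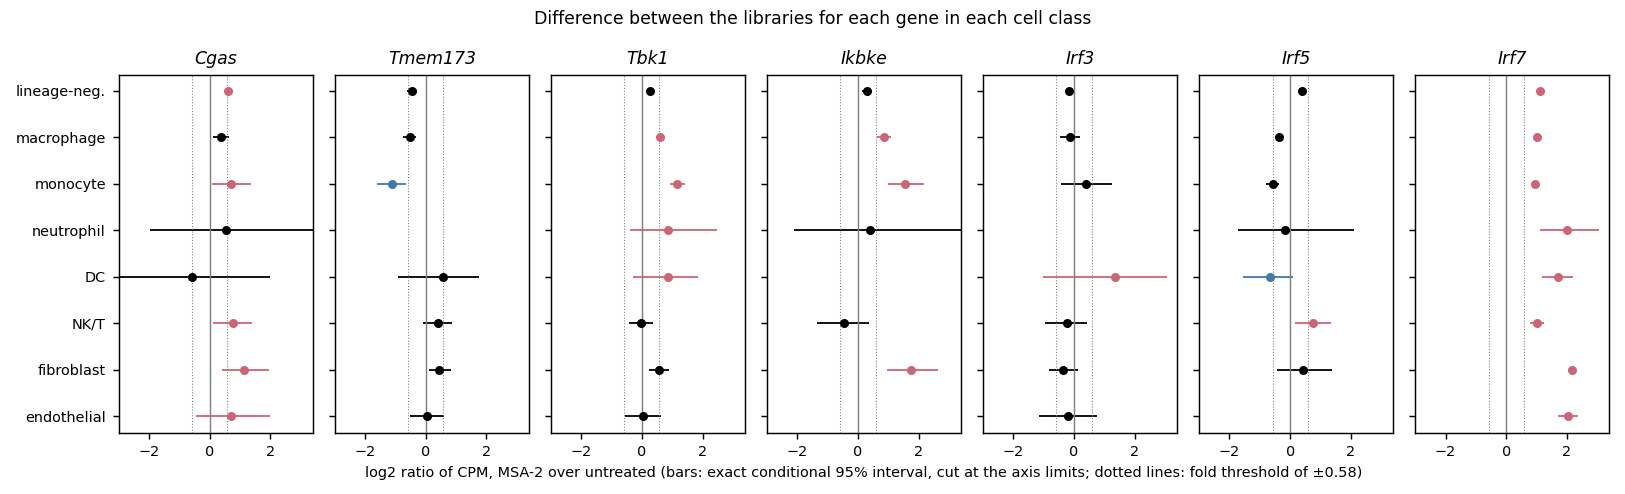
Log2 ratio of CPM, MSA-2 over untreated (horizontal axis), for 7 genes (panels) in 8 cell classes (lines), with exact conditional 95% intervals as bars and the threshold of 0.58 as dotted lines. Irf7 lies right of its threshold in every class, and Tmem173 lies left of 0 in the upper 3 classes.

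The sensor gene Cgas (chr9:78430526-78443237, minus strand, GRCm38) was at a similar low level in most classes of the untreated library. It stood at 18.90 CPM in lineage-negative, 20.20 in macrophage-like, 16.94 in DC-like, 16.20 in monocyte-like and 12.85 in NK/T-like cells. Each of these neighbors in rank overlapped in its interval, and fibroblast-like cells were lowest at 6.213 CPM (3.620 to 9.948), below NK/T-like cells. Lineage-negative cells held 80.21% of Cgas UMIs in the untreated library and 87.16% in MSA-2, where they held 78.70% and 84.24% of all UMIs.

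In the MSA-2 library Cgas was at 28.51 CPM in lineage-negative cells, 1.51-fold higher (log2 ratio 0.59, interval 0.52 to 0.66). Scaling by edgeR's TMM factors (0.52) or adding 10 CPM before the ratio (0.41) brought it under the threshold. In fibroblast-like cells it was at 13.58 CPM (log2 ratio 1.13, interval 0.39 to 1.95), from 17 untreated and 127 MSA-2 UMIs, and with 10 CPM added the ratio was 0.54. NK/T-like cells went from 12.85 to 21.86 CPM (log2 ratio 0.77, interval 0.12 to 1.38), and with 10 CPM added the ratio was 0.48. The T and NK parts of this class differed between the libraries, as given above. Macrophage-like cells were at 26.35 CPM in MSA-2, a log2 ratio of 0.38 (0.11 to 0.65) that did not reach the threshold. The monocyte-like ratio was 0.70 (0.07 to 1.37) and that of both phagocyte classes summed was 0.41, while with classes taken from clusters the monocyte-like ratio was -0.70. The endothelial-like ratio of 0.71 had an interval that includes 0 (-0.44 to 1.99). Within NK/T-like cells, CD8 T-like cells went from 10.58 CPM (25 UMIs) to 38.61 CPM (18 UMIs), a log2 ratio of 1.87 (0.91 to 2.80). NK-like cells were at 14.28 and 11.96 CPM, from 12 and 7 UMIs.

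Cgas was also unevenly spread within a class. Each cell was thinned at random to 1500 UMIs, and cells with at least 2 of 10 cell cycle markers were called cycling, 1710 of 6244 untreated and 2383 of 6854 MSA-2 lineage-negative cells. In the untreated library Cgas was at 26.12 CPM (20.24 to 33.17) in cycling and 13.53 CPM (10.91 to 16.59) in other lineage-negative cells. In the MSA-2 library these levels were 31.05 (25.55 to 37.40) and 21.62 CPM (18.24 to 25.44). Untreated macrophage-like cells had the same order, at 39.80 (24.31 to 61.47) in cycling and 18.23 CPM (14.54 to 22.57) in other cells. The Cgas level was thus higher in cycling cells in both of these classes of the untreated library, with intervals that did not overlap. Irf7 had the opposite order in lineage-negative cells, at 43.27 CPM in cycling and 80.72 in other untreated cells, and at 103.2 and 138.8 CPM in MSA-2.

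**Figure D3:**
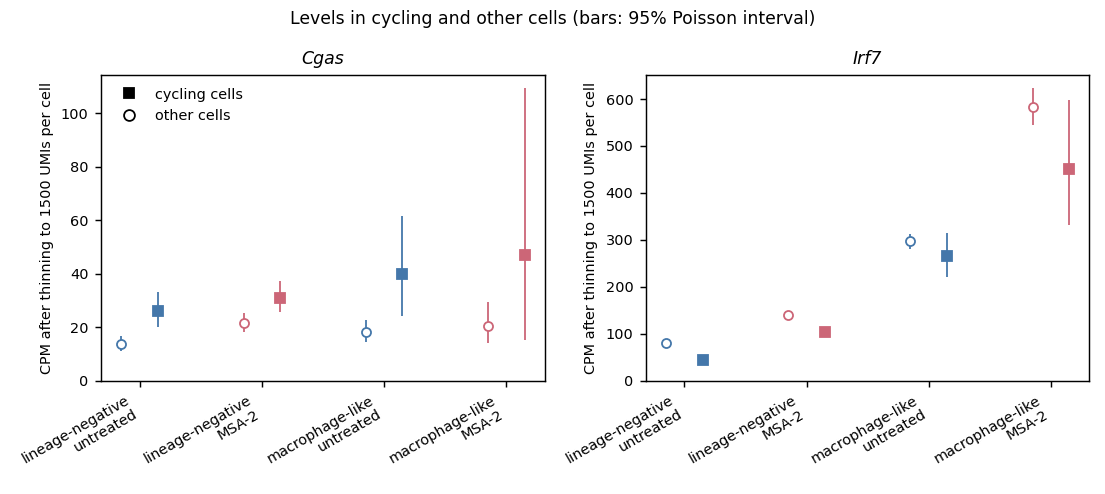
Level in CPM after thinning to 1500 UMIs per cell (vertical axis, from 0) of Cgas (left) and Irf7 (right) in cycling cells (filled squares) and other cells (open circles) of 2 classes and both libraries, with 95% Poisson intervals. Cgas is higher in cycling lineage-negative cells (26.12 against 13.53 CPM untreated) and Irf7 is lower (43.27 against 80.72 CPM).

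Across 14 class and library points of at least 50 cells each, the gene of known function most like Cgas in level was Ckap2l, a mitotic spindle gene (Pearson r = 0.80 on log2 of CPM plus 10, a description over points that share libraries). The gene models Gm19684 (r = 0.90) and Gm49774 (r = 0.81) ranked above it. The window of 300 bases around the RefSeq start site of Cgas is shown because this gene was higher in the MSA-2 library without the size of the Irf7 difference. It lies at chr9:78443188-78443487 (GRCm38.p6, minus strand), with the 50 bases from the start site on in capitals.
Cgas: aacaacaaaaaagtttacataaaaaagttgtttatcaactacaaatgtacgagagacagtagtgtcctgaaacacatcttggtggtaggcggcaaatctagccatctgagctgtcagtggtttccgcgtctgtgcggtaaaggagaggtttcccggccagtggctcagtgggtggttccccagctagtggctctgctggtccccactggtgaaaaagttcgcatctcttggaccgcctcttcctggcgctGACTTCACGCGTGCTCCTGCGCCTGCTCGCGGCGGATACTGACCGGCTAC

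Trex1, the exonuclease gene (chr9:109057933-109059734, minus strand), had 0 UMIs in all 13334 untreated and all 13393 MSA-2 cells. A count of 0 allows up to 3 counts, or 0.01636 CPM untreated and 0.01563 CPM in MSA-2. In the GENCODE M21 annotation all 1147 exon bases of Trex1 lie within exons of Atrip on the same strand. Atrip, which encodes the partner of the ATR kinase, had 2141 and 2441 UMIs (11.68 and 12.72 CPM). A read within Trex1 exons thus also lies within Atrip exons. How such reads were counted is not given in the sources used here, so the 0 is not read as a low level.

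The adaptor gene Tmem173 (chr18:35733679-35740554, minus strand) had a wide range of levels over classes. In the untreated library it was at 75.22 CPM in endothelial-like, 54.83 in macrophage-like, 47.49 in monocyte-like and 46.19 in DC-like cells. These 4 overlapped in their intervals. Fibroblast-like (28.87 CPM) and NK/T-like cells (26.57) came next, and lineage-negative cells were far lower at 5.357 CPM (4.986 to 5.748). In neutrophil-like cells of the MSA-2 library the level was 4.687 CPM, from 26 UMIs in 2673 cells.

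In mononuclear phagocytes the Tmem173 ratio lay below 0. Macrophage-like cells were at 54.83 and 37.98 CPM (log2 ratio -0.53, interval -0.74 to -0.32), which did not reach the threshold. In monocyte-like cells it went from 47.49 to 21.82 CPM (-1.12, -1.62 to -0.64), and in both classes summed from 54.24 to 32.64 CPM (-0.73, -0.92 to -0.55). Lineage-negative cells were at 5.357 and 3.910 CPM (-0.45, -0.61 to -0.30), also under the threshold. In thinned macrophage-like cells the share with a Tmem173 UMI was 8.600% untreated and 5.680% in MSA-2, where the unthinned shares were 25.55% and 16.20%.

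Fibroblast-like cells had the opposite direction, at 28.87 and 39.46 CPM (log2 ratio 0.45, interval 0.10 to 0.82), which reached the threshold, at 0.70, only with TMM factors. NK/T-like cells were at 26.57 and 34.84 CPM, with an interval of -0.10 to 0.86 that includes 0. Endothelial-like cells were at 75.22 and 76.76 CPM (interval -0.52 to 0.59). DC-like cells were at 46.19 CPM untreated, and 6 UMIs gave 68.28 CPM (25.06 to 148.6) in MSA-2. In none of these 4 classes was the MSA-2 level below the untreated level, and the difference between classes was not tested.

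RNA of other cells was measured in the same class. The complement genes C1qa, C1qb and C1qc, made by macrophages, were at 1.759% of their macrophage-like level in untreated lineage-negative cells and at 0.6827% in MSA-2. At that rate free macrophage RNA would carry 0.9643 of the 5.357 CPM of Tmem173 untreated and 0.2593 of the 3.910 CPM in MSA-2, and with these subtracted the log2 ratio was -0.27. Neutrophil markers in lineage-negative cells summed to 30.01 CPM untreated and 468.7 CPM after MSA-2. In macrophage-like cells neutrophil markers summed to 164.8 and 979.6 CPM and monocyte markers to 1996 and 3188 CPM. In fibroblast-like cells neutrophil markers summed to 51.90 and 588.6 CPM and monocyte markers to 3850 and 5665 CPM. Of the 10 monocyte markers, which include the fibronectin gene Fn1, 5 reached 10 CPM in fibroblast-like cells in each library. That monocyte sum was not split by gene and is not read as RNA of monocytes. Pericyte markers of fibroblast-like cells summed to 123.9 and 29.20 CPM and their fibroblast markers to 46132 and 28522 CPM. In DC-like cells cDC2 (conventional type 2 DC) markers summed to 709.3 and 250.4 CPM. Their mregDC (mature regulatory DC) markers summed to 2073 and 3186 CPM. Neutrophil markers summed to 385.0 and 1684 CPM in DC-like cells and to 40.29 and 471.4 CPM in NK/T-like cells. In monocyte-like cells macrophage markers summed to 8233 and 3238 CPM and neutrophil markers to 609.0 and 1965 CPM. In endothelial-like cells neutrophil markers summed to 21.73 and 576.7 CPM, fibroblast markers to 481.4 and 948.7 CPM and pericyte markers to 157.1 and 38.38 CPM. Neutrophil RNA traced in the same way would carry 0.1418 of the 28.51 CPM of Cgas, 0.02094 of the 3.910 CPM of Tmem173 and 3.889 of the 114.8 CPM of Irf7 in MSA-2 lineage-negative cells, and 4.521 of the 673.5 CPM of Irf7 in fibroblast-like cells. The 7 ratios of macrophage-like cells without the monocyte-marker cluster, and the 7 of lineage-negative cells without the neutrophil-marker cluster, stayed within their counting intervals.

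The kinase gene Tbk1 (chr10:121546455-121586787, minus strand) was higher in the MSA-2 library in macrophage-like and monocyte-like cells. Macrophage-like cells were at 78.46 and 118.4 CPM (1.51-fold, log2 ratio 0.59, interval 0.46 to 0.72). This ratio was just past the threshold, and fell under it with the stricter gate (0.48), with classes taken from clusters (0.54) and with 10 CPM added (0.54). Monocyte-like cells were at 87.72 and 198.1 CPM (1.18, 0.92 to 1.44), and both classes summed were at 79.20 and 144.7 CPM (0.87, 0.77 to 0.98). Fibroblast-like cells had a ratio of 0.56 (0.25 to 0.90), from 35.09 to 51.87 CPM, just under the threshold.

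In other classes the Tbk1 difference was small or not resolved. Lineage-negative cells were at 33.60 and 40.86 CPM (log2 ratio 0.28, interval 0.23 to 0.34). NK/T-like cells were at 49.84 and 49.19 CPM (interval -0.41 to 0.36), and endothelial-like cells at 66.86 and 68.89 CPM (interval -0.54 to 0.64). Neutrophil-like cells of the MSA-2 library had 197.2 CPM, about the level of monocyte-like cells there, but 5 untreated UMIs give an interval of -0.38 to 2.48. In thinned monocyte-like cells a Tbk1 UMI was found in 12.06% (9.217 to 15.41) untreated and 25.80% (22.64 to 29.16) in MSA-2.

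Ikbke (chr1:131254343-131279606, minus strand), which encodes the inducible kinase IKKε, followed Tbk1 in the phagocytes with larger ratios. Macrophage-like cells were at 23.93 CPM untreated and 43.29 CPM in MSA-2 (1.81-fold, log2 ratio 0.85, interval 0.63 to 1.08). Monocyte-like cells were at 16.76 and 49.18 CPM (1.55, 0.98 to 2.17), and both classes summed had a ratio of 0.95 (0.76 to 1.14). With classes taken from clusters the monocyte-like ratio was -0.61. Fibroblast-like cells went from 5.117 CPM (14 UMIs) to 17.00 CPM (159 UMIs), a ratio of 1.73 (0.94 to 2.64).

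Neutrophil-like cells of the MSA-2 library were at 28.84 CPM (24.55 to 33.68, 160 UMIs), above fibroblast-like cells there, and 1 untreated UMI gave a ratio interval of -2.10 to 5.71.

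In lineage-negative cells Ikbke was at 3.805 and 4.646 CPM (log2 ratio 0.29, interval 0.13 to 0.45), and NK/T-like cells at 14.07 and 10.25 CPM (-1.36 to 0.35). Endothelial-like cells had 2 UMIs in each library, and DC-like cells had 5 untreated UMIs and 0 in MSA-2, so neither class was tested. Across class and library points, the genes most like Ikbke were Tlr7, an endosomal RNA sensor gene (r = 0.96), Il10 (0.93) and Zeb2 (0.91). Among the members themselves the highest likeness was between Tbk1 and Irf7 (0.79) and between Tbk1 and Ikbke (0.78), again as a description.

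Irf3 (chr7:44997648-45002848, plus strand), the factor phosphorylated downstream of STING, passed the threshold in 1 class, DC-like cells. Its level was 16.59 and 14.74 CPM in lineage-negative cells (log2 ratio -0.17, from 2394 and 2383 UMIs). In macrophage-like cells it was 19.03 and 17.45 CPM, in NK/T-like cells 18.58 and 15.71 CPM, and in fibroblast-like cells 19.01 and 14.87 CPM. In these 3 classes the level intervals of both libraries overlapped. The DC-like ratio of 1.35 rests on 26 and 3 UMIs, and its interval of -1.01 to 3.06 includes 0.

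Irf5 (chr6:29526625-29541871, plus strand), a factor of myeloid cells, had its highest levels in antigen-presenting cells. In the untreated library it was at 254.6 CPM in DC-like, 192.8 in monocyte-like and 104.9 in macrophage-like cells, and the lineage-negative, NK/T-like, fibroblast-like and endothelial-like classes stood between 5.117 and 14.94 CPM. Among untreated DC-like cells the cDC1-like had 330.0 CPM (276.7 to 390.6) and the mregDC-like 185.7 CPM (149.3 to 228.2), and the cDC2-like an interval of 163.2 to 242.6 CPM. The cDC1-like level was above both other subsets, with intervals that did not overlap.

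The Irf5 ratio lay below 0 in phagocytes and above 0 in lineage-negative and NK/T-like cells. Macrophage-like cells were at 81.78 CPM (log2 ratio -0.36, interval -0.51 to -0.22) and monocyte-like cells at 129.2 CPM (-0.58, -0.79 to -0.36). Neither ratio reached the threshold, and the monocyte-like one was 0.51 with classes taken from clusters. DC-like cells went from 254.6 to 159.3 CPM (14 MSA-2 UMIs, -0.68, -1.56 to 0.08). The cDC1-like gate held 39 untreated and 1 MSA-2 cells, the cDC2-like 79 and 0, and the mregDC-like 75 and 11. In mregDC-like cells Irf5 had the opposite direction, at 185.7 and 257.9 CPM from 90 and 13 UMIs (0.47, -0.49 to 1.32, which includes 0). Macrophage-like and monocyte-like cells summed had a smaller ratio of -0.20 (-0.31 to -0.09). Lineage-negative cells went from 11.78 to 15.52 CPM (0.40, 0.31 to 0.49), and with C1q-traced free RNA subtracted this ratio was 0.59. NK/T-like cells went from 14.94 to 25.28 CPM (0.76, 0.16 to 1.33), past the threshold, but under it with the stricter gate (0.19), as a mean over cells (0.50) and with 10 CPM added (0.50). T and NK cells made up different parts of this class in the 2 libraries, and the untreated Irf5 level was 9.736 CPM (6.172 to 14.61) in CD8 T-like and 19.04 CPM (10.88 to 30.92) in NK-like cells. Within each of these gates the interval of the ratio included 0 (-0.55 to 2.03 and -0.27 to 1.83). Irf5 shares 411 exon bases with Tnpo3 on the opposite strand, 251 of them in its last 500 bases.

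Irf7 (chr7:141262706-141266481, minus strand), the interferon-inducible factor that amplifies type I interferon, had the largest number of UMIs of the members in every class of the MSA-2 library. In the untreated library its level ran from 53.38 CPM in lineage-negative and 82.15 in NK/T-like cells to 285.1 in macrophage-like and 411.2 CPM in monocyte-like cells. In the MSA-2 library lineage-negative (114.8 CPM) and NK/T-like cells (165.3) were again lowest, and neutrophil-like (870.4), monocyte-like (796.2), fibroblast-like (673.5) and endothelial-like cells (605.2) were at or above macrophage-like cells (578.6). Fibroblast-like cells thus stood below macrophage-like cells untreated and above them in MSA-2.

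The ratios of Irf7 formed a low and a high set. Lineage-negative (log2 ratio 1.10, interval 1.07 to 1.14), macrophage-like (1.02, 0.96 to 1.08), monocyte-like (0.95, 0.83 to 1.08) and NK/T-like cells (1.01, 0.78 to 1.24) lay near 1. Fibroblast-like cells went from 150.2 to 673.5 CPM, 4.48-fold (2.17, 2.02 to 2.31), and endothelial-like cells from 147.1 to 605.2 CPM (2.04, 1.72 to 2.38). The stromal intervals lay above those of the 4 classes near 1, which describes counting error in these libraries and is no test of the difference. DC-like cells had 1.71 (1.18 to 2.20) with 39 MSA-2 UMIs, and neutrophil-like cells 1.99 (1.11 to 3.06) with 10 untreated UMIs. With TMM factors the neutrophil-like ratio was 3.01. With classes taken from clusters, which left 11 untreated monocyte-like cells, the ratio of that class was -0.21. Macrophage-like and monocyte-like cells summed had 1.14 (1.09 to 1.19).

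More cells carried the gene. After thinning, an Irf7 UMI was found in 16.67% of untreated and 61.97% of MSA-2 fibroblast-like cells (60.00% and 95.91% unthinned). The same shares were 32.23% and 52.61% in macrophage-like, 39.47% and 63.52% in monocyte-like, and 9.241% and 16.28% in lineage-negative cells. Free macrophage RNA traced by C1q would carry 5.014 of the 53.38 CPM of untreated lineage-negative cells and 3.950 of their 114.8 CPM in the MSA-2 library. Among the clusters of the macrophage-like class, Irf7 ranged from 106.9 to 328.2 CPM over 5 untreated clusters and from 558.0 to 862.6 CPM over 3 MSA-2 clusters, without overlap. Of all genes tested in that class, 4.68% had every MSA-2 cluster above every untreated one and 9.27% every one below. Of the 3 MSA-2 clusters, 15 and 17 were monocyte-like by their markers, and in cluster 12, which held macrophage-like cells of both libraries, Irf7 was at 328.2 (66 cells) and 560.3 CPM (892 cells). Lineage-negative clusters did overlap, at 27.13 to 140.7 CPM untreated and 90.65 to 283.6 CPM in MSA-2, where 3.37% of all genes had every MSA-2 cluster above and 3.36% every one below. Cluster 6 held lineage-negative cells of both libraries. Irf7 was there at 140.7 CPM untreated (51 cells) and 135.3 CPM in MSA-2 (1430 cells), without the higher MSA-2 level of the whole class.

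**Figure D4:**
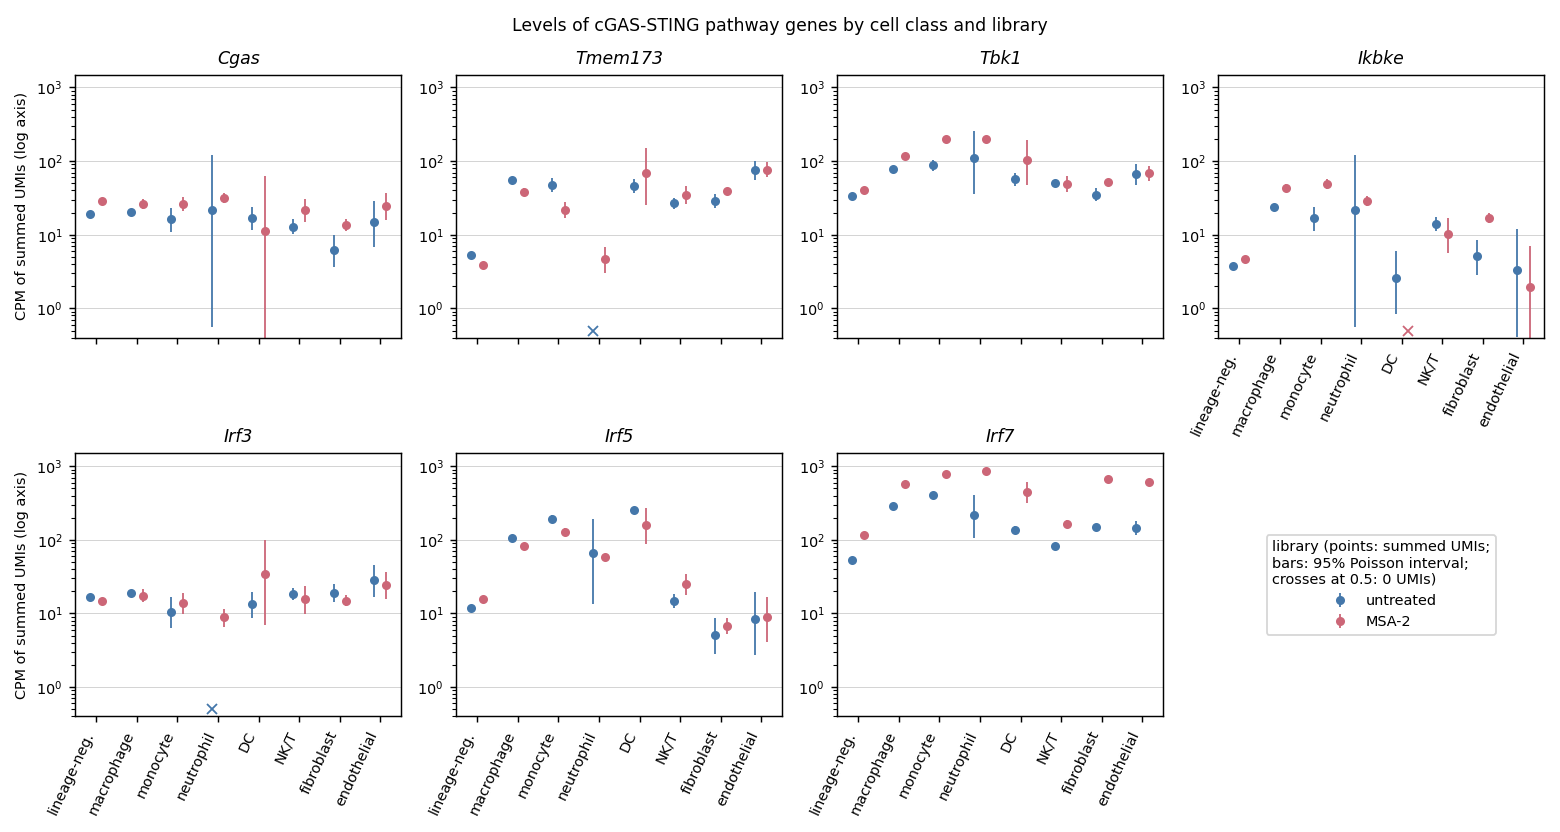
Level in CPM of summed UMIs (vertical log axis) of 7 genes (panels) in 8 cell classes, in the untreated and the MSA-2 library (colored points), with 95% Poisson intervals as bars and crosses where 0 UMIs were found. Irf7 in fibroblast-like cells goes from 150.2 to 673.5 CPM, while Tmem173 in macrophage-like cells goes from 54.83 to 37.98 CPM.

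Across the 14 class and library points Irf7 was most like Ifi204 (r = 0.97) and Ifi211 (0.97), both genes of the interferon-inducible PYHIN family, and Myd88, the Toll-like receptor adaptor (0.95). The window around its RefSeq start site is shown because Irf7 carries the largest difference found in these genes. It lies at chr7:141266375-141266674 (GRCm38.p6, minus strand), with the 50 bases from the start site on in capitals.
Irf7: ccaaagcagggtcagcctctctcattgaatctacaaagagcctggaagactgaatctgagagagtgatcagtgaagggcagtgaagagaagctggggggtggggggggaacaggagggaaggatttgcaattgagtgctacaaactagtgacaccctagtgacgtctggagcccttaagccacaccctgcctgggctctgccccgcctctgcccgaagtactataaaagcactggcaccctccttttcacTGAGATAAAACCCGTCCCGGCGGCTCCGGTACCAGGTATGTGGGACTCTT

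Windows were read for 7 members (8 windows), and not for Tmem173, the STING gene, whose chromosome was left out. None of the 8 windows held the interferon-stimulated response element, searched as GAAA, any 2 bases and GAAA on either strand. It occurs in 1131 of 32851 RefSeq windows of the same length (3.44%). None held the letters TTCNNNGAA of the interferon-γ activated site, found in 2726 windows (8.30%). These counts say only that the letters are not within 250 bases before and 50 bases from the annotated start.

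More members were detected per cell in the MSA-2 library. After thinning, the mean number of members with a UMI per cell was 0.3288 untreated and 0.8285 in MSA-2 for fibroblast-like cells, 0.7488 and 1.007 for macrophage-like cells, and 0.2337 and 0.3277 for lineage-negative cells. Irf7 makes up much of these numbers. Cells were also split by an Ifnb1 UMI among all their UMIs before thinning, so the split can follow depth, and the members were read after thinning. Cells with an Ifnb1 UMI were 705 of 3407 untreated macrophage-like cells deep enough to thin, where the 1074 of MSA-2 held 831. Irf7 did not follow that split within a library, at 308.3 CPM (275.7 to 343.6) with and 289.4 (273.1 to 306.5) without Ifnb1 untreated, and 564.8 (523.8 to 608.1) and 606.3 CPM (529.0 to 691.7) in MSA-2. In MSA-2 lineage-negative cells Tmem173 was at 7.326 CPM (21 UMIs, 4.535 to 11.20) with and 3.911 CPM (29 UMIs, 2.619 to 5.617) without Ifnb1, with overlapping intervals. The median depth of these cells was 25640 UMIs with and 18588 without Ifnb1.

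The wider pathway was followed with a list of 49 genes in 5 groups. Of these, 14 were higher and 3 lower past the threshold in macrophage-like cells, and 13 higher and 1 lower in lineage-negative cells. All tested genes gave 14.6% higher and 18.1% lower in macrophage-like cells, and 20.2% higher and 12.6% lower in lineage-negative cells, and the counts of the groups are read against these shares. The list's median log2 ratio was 0.22 in macrophage-like cells, where the median of all genes was -0.13, and 0.32 in lineage-negative cells, where it was 0.07. The group of output genes had medians of 2.01 and 1.41 in these classes, and the other 4 groups lay between -0.04 and 0.40 and between -0.07 and 0.45.

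Output genes were higher throughout macrophage-like cells, 4 of 4. Ifnb1, the interferon-β gene, went from 114.0 to 1040 CPM (log2 ratio 3.19, interval 3.12 to 3.26), Ccl5 from 1179 to 6175, Cxcl10 from 2110 to 4854 and Isg15 from 639.0 to 1970 CPM. In lineage-negative cells 3 of 4 were higher, with Ifnb1 at 2.564 and 19.86 CPM (2.95), while Cxcl10 stayed under the threshold at 0.54. The C1q genes stood in lineage-negative cells at 1.759% untreated and 0.6827% in MSA-2 of their macrophage-like level. How much of the low Ifnb1 level of this class free macrophage RNA would carry was not tested, so its ratio is not read as Ifnb1 made by these cells.

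Among genes of DNA and cyclic dinucleotide handling, 3 of 13 were higher and 0 lower in each of both classes, near the 20.2% of all genes higher in lineage-negative cells. Enpp1, which encodes the hydrolase of extracellular cGAMP, went from 5.618 to 15.06 CPM in macrophage-like cells (1.42, 1.01 to 1.83), and in lineage-negative cells it was at 0.2564 and 0.5320 CPM from 37 and 86 UMIs (1.05, 0.48 to 1.65). Smpdl3a, which encodes a phosphodiesterase reported to cleave cGAMP, went from 62.04 to 161.7 CPM in macrophage-like cells (1.38). In lineage-negative cells it was at 1.705 and 1.608 CPM (-0.08). Samhd1, the dNTP hydrolase gene, sat on the threshold in both classes (0.58 and 0.59). Abcc1, a membrane exporter gene, was higher in lineage-negative cells, from 41.80 to 105.8 CPM (1.34).

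Of the 13 genes of STING traffic and turnover, 4 were higher and 1 lower in macrophage-like cells and 3 higher and 0 lower in lineage-negative cells. Usp18, the interferon-inducible ISG15 protease gene, went from 48.24 to 261.1 CPM in macrophage-like cells (2.44) and from 26.76 to 81.70 CPM in lineage-negative cells (1.61). Trim30a, which encodes a ubiquitin ligase that promotes STING degradation, had ratios of 1.44 and 1.18, and Trim56 of 0.94 and 1.01. Nlrc3 was higher in macrophage-like cells at 0.97 (0.22 to 1.69), and Trim32 was lower at -0.69 with an interval that includes 0 (-1.66 to 0.17).

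Of the 11 kinase scaffold and NF-κB genes, 1 was higher and 1 lower in macrophage-like cells. Traf3, which encodes an adaptor that restrains noncanonical NF-κB, was lower, from 270.8 to 129.9 CPM (-1.06, -1.17 to -0.95), and Optn, the optineurin gene, was higher (0.95). In lineage-negative cells Traf6 alone passed, from 21.80 to 46.46 CPM (1.09). Among the 8 other adaptors and factors, Stat2 was higher in macrophage-like (1.39) and lineage-negative cells (0.96), as was Myd88 (0.70 and 0.77). Irf9 was higher in lineage-negative cells (0.96) and under the threshold in macrophage-like cells (0.48).

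Irf8, a factor of the myeloid lineage, was lower in both classes. It went from 269.7 to 159.1 CPM in macrophage-like cells (-0.76, -0.86 to -0.66) and from 9.044 to 2.475 CPM in lineage-negative cells (-1.87, -2.04 to -1.71). C1q-traced free RNA would carry 4.744 of the 9.044 CPM and 1.086 of the 2.475 CPM in lineage-negative cells.

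**Figure D5:**
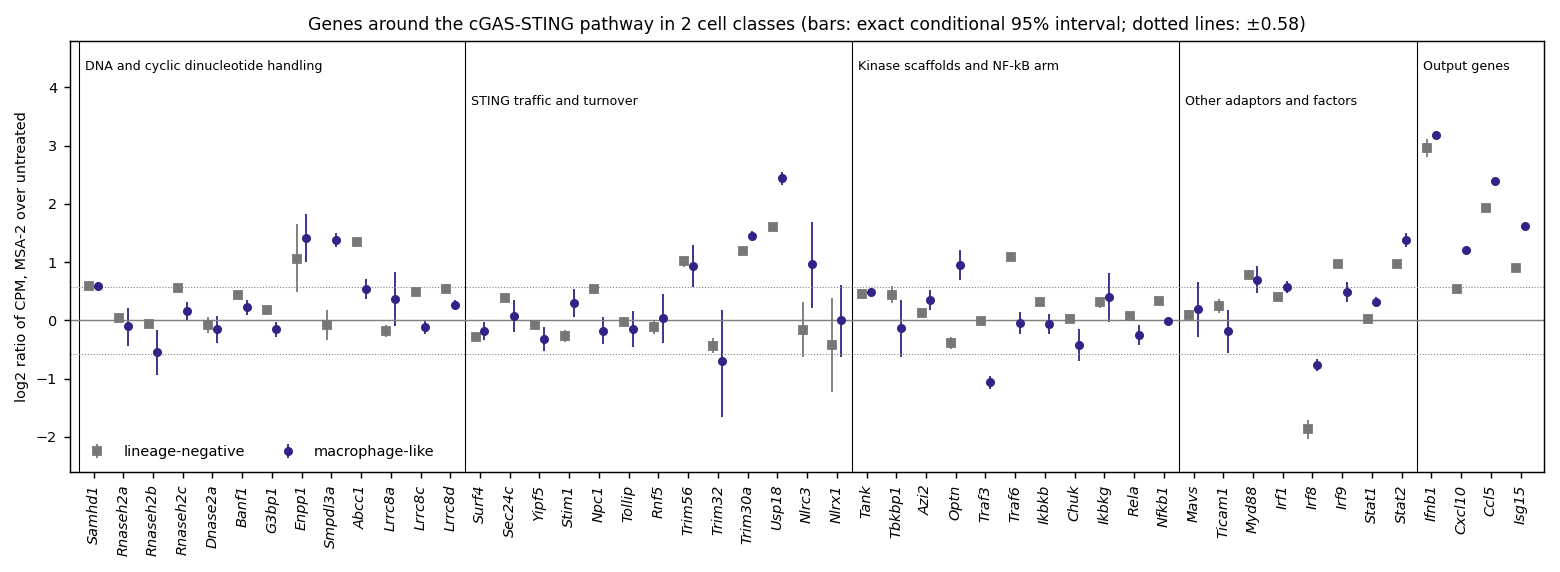
Log2 ratio of CPM, MSA-2 over untreated (vertical axis), of 49 genes around the pathway (horizontal axis, in 5 groups) in lineage-negative (squares) and macrophage-like cells (circles), with exact conditional 95% intervals and dotted lines at 0.58. Ifnb1 (3.19 in macrophage-like cells) is the highest point and Irf8 in lineage-negative cells (-1.87) the lowest.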

How the data were processed

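The authors made 10x Chromium 3′ (v3.1) libraries and deposited them as matrices of unnormalized UMI counts. Cell Ranger 7.0.0 and Seurat 4.3.0 are named in the submitters' processing notes with the build mm10, and the file headers name Cell Ranger 7.0.1. The methods name other versions of both programs, and which apply is not clear. Whether doublets were removed before deposit is not given in the sources used here. The barcode numbers, 14386 and 14617, equal those the methods give after quality filtering.

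Barcodes under 500 genes or over 20% mitochondrial UMIs were dropped. Doublets called by Scrublet in scanpy 1.11.5 (expected rate 0.8% per 1000 barcodes) were also removed, 705 untreated and 570 MSA-2. Classes were gated on summed marker shares per 10000 UMIs, with at least 3 marker UMIs, and lineage-negative cells needed 3000 UMIs. Between 1.008% and 15.62% of a class lay within 1.5 times its cut-off. Leiden clustering (leidenalg 0.10.2) of the kept cells gave the clusters, and gate and cluster put 23804 of 26727 cells (89.06%) in the same class. Counts were summed per class and library and scaled to CPM with Python 3.11.15, numpy 2.4.6, scipy 1.17.1 and pandas 2.3.3. Levels carry Poisson and ratios exact conditional binomial 95% intervals, shares exact Clopper-Pearson ones. A ratio needed 20 UMIs over the pair of libraries and 1 in each. UMI counts of 3′ ends are not scaled by gene length. The computation was tested on simulated counts with known changes. Positions come from GENCODE M21 and start-site windows from RefSeq, both on GRCm38.p6. edgeR 4.0.16 in R 4.3.3 gave TMM factors.

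The members were named by symbol, the pathway genes and epithelial and lineage markers are lists, and all were chosen with earlier results of these data known. The gate genes and cut-offs were set after marker levels were seen. Named genes are the 8 members, the listed genes at or past a log2 ratio of 0.58 in macrophage-like or lineage-negative cells, and the 3 genes most like each member among 14422 genes with at least 200 UMIs, over points of at least 50 cells. Not all of the latter are printed. Alternatives changed the cell filter, doublets, gates, clusters, scaling, added CPM, minimum UMIs and threshold.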

Additional observations from a re-analysis of the deposited data

Results flagged for a closer look

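Tmem173 and Irf5 differed between the libraries in opposite directions in different classes, with counting intervals on opposite sides of 0. For Tmem173 the log2 ratio (MSA-2 to untreated) was -0.454 in lineage-negative, -0.53 in macrophage-like and -1.122 in monocyte-like cells, and 0.451 in fibroblast-like cells. It was -0.733 in macrophage-like and monocyte-like cells summed, and -0.27 in lineage-negative cells with C1q-traced free RNA subtracted. For Irf5 it was -0.359 in macrophage-like and -0.577 in monocyte-like cells, and 0.398 in lineage-negative and 0.759 in NK/T-like cells. With classes taken from clusters the monocyte-like ratio of Irf5 was 0.51, and with the stricter gate its NK/T-like ratio was 0.19. The difference between classes was not tested, since each class came from the same single library per condition.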

How the results depend on the processing

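No paired analysis was possible because each condition had 1 library. Of 518 log2 ratios recomputed over 58 pairs of member and class, 18 changed sign. Of these, 5 started past the threshold and 13 under it. Of the 13, 12 stayed within the counting interval, and Irf5 in monocyte-like cells taken from clusters (0.51) left it. The 5 were Cgas (-0.70), Ikbke (-0.61) and Irf7 (-0.21) in monocyte-like cells taken from clusters, which held 11 untreated cells, Tbk1 in neutrophil-like cells under the stricter cell filter (-1.33) and Cgas in endothelial-like cells as a mean over cells (-0.46). The cause was not tested. Of 26 pairs past the threshold, 13 fell under it in at least 1 alternative, among them Cgas in fibroblast-like (0.54) and NK/T-like cells (0.48) with 10 CPM added, and 16 pairs under it passed it in at least 1. TMM factors shifted ratios by over 0.1 in monocyte-like (0.26), neutrophil-like (1.02), DC-like (-0.21), fibroblast-like (0.25) and endothelial-like cells (0.18).

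The counts in this paragraph come without a share of all genes at the same setting, so they are not set against a background. At a threshold of 1, the members past it numbered 1 in lineage-negative cells (from 2), 1 in macrophage-like (from 3) and 3 in monocyte-like cells (from 5). They numbered 1 in neutrophil-like (from 2), 2 in DC-like (from 4) and 1 in NK/T-like cells (from 3). Endothelial-like cells had 1 (from 2), and all kept cells 1 (from 2). The pathway list gave 10 (from 17) in macrophage-like and 9 (from 14) in lineage-negative cells. TMM factors move all ratios of a class alike, and with them the number past 0.58 was 1 in lineage-negative, 5 in neutrophil-like and 6 in fibroblast-like cells (from 3). With 10 CPM added it was 1 in lineage-negative, NK/T-like and endothelial-like cells and 1 over all kept cells. As a mean over cells it was 5 in fibroblast-like, 1 in endothelial-like and 5 over all kept cells. A stricter gate or at least 50 UMIs left 1 in endothelial-like cells, and the stricter cell filter 1 in neutrophil-like cells. Subtracting C1q-traced free RNA, an alternative chosen after seeing the data like the summed phagocytes, the left-out clusters and the fixed class shares, gave 5 in fibroblast-like cells. Irf7 stayed above 0 under the alternatives run in every class except monocyte-like cells. Neutrophil-like, DC-like and endothelial-like ratios rest on few cells in at least 1 library.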

Other observations

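Within macrophage-like cells the cluster ranges of the kinase genes did not overlap between libraries, with the MSA-2 clusters higher, which held for 4.68% of all genes tested in that class. Tbk1 ran from 55.01 to 88.76 CPM over 5 untreated clusters and from 114.4 to 183.7 CPM over 3 MSA-2 clusters. Ikbke ran from 22.38 to 26.9 CPM untreated and from 41.76 to 58.25 CPM in MSA-2. Of the 3 MSA-2 clusters, 15 and 17 were monocyte-like by their markers. In cluster 12, with 66 untreated and 892 MSA-2 macrophage-like cells, Tbk1 was at 64.56 and 114.4 CPM and Ikbke at 26.90 and 41.76 CPM. Cgas overlapped, at 11.86 to 41.48 and 13.44 to 38.29 CPM, as did Tmem173, at 24.85 to 84.77 and 10.94 to 40.35 CPM, and Irf5, at 42.25 to 123.5 and 73.93 to 82.51 CPM. In lineage-negative clusters Cgas ran from 10.49 to 24.9 CPM untreated and from 18.02 to 42.11 CPM in MSA-2. In cluster 6, with 51 untreated and 1430 MSA-2 lineage-negative cells, Cgas was at 22.99 CPM (17 UMIs) and 42.11 CPM. Tbk1 was there at 48.69 and 47.92 CPM.

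In the small CD4 T-like gate Tmem173 had 28 UMIs in 122 untreated cells (53.35 CPM, interval 35.45 to 77.11) and 0 UMIs in 15 MSA-2 cells, which allows up to 46.27 CPM at 3 counts. Irf7 in CD8 T-like cells was at 71.12 and 173.8 CPM (log2 ratio 1.29) and in NK-like cells at 103.5 and 169.1 CPM (0.71). In mregDC-like cells Irf7 was at 80.46 CPM (39 UMIs) and 277.8 CPM (14 UMIs).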
